A study of Mus musculus with 3 samples.

Results

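Krüppel-like factors are transcription factors that bind GC-rich and CACCC-type DNA through a zinc finger domain at their carboxyl end. 10 of these genes, Klf2, Klf3, Klf4, Klf5, Klf6, Klf7, Klf9, Klf10, Klf11 and Klf13, were followed in bulk RNA sequencing of sorted mouse mammary cells. They were taken by gene symbol, and all 10 were found among the 52661 gene identifiers of each library. The data consist of 3 libraries, 1 for each population, called samples below, all labelled as mammary epithelial cells that carry PROCR (the protein C receptor) and gated as EpCAM positive with high CD49f. The CD36+ sample holds cells that were CD36 positive and negative for podoplanin (PDPN), with Cdh5 positive in the title. The PDPN+ sample holds CD36-negative, PDPN-positive cells with Cdh5 negative in the title. The double-negative sample holds cells negative for both proteins, with Cdh5 positive in the title. The sources used here give no strain, age, treatment or number of mice.

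The family divides by what its members recruit. KLF2, KLF4, KLF5, KLF6 and KLF7 are mostly activators that work with acetyltransferases, KLF3 is a repressor that binds CtBP, and KLF9, KLF10, KLF11 and KLF13 bind the SIN3 corepressor. KLF2 and KLF4 are known in endothelium for keeping vessels quiescent and non-thrombotic, and both genes are induced by blood flow through the kinase ERK5 and MEF2 factors. KLF5 is known from proliferating basal cells of epithelia, and KLF4 from epithelial barrier formation.

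The CD36+ sample had 67675778 estimated counts, the PDPN+ sample 63871266 and the double-negative sample 51138993. Levels are given in CPM, counts scaled to a common total with TMM factors, and between genes in TPM, which corrects for transcript length. With 1 library a population there is no replicate error and no test, so each ratio compares those libraries, and its 95% interval covers counting error only. In bulk RNA, fewer cells of a type and less RNA per cell cannot be told apart. The 10 endothelial markers summed to 5392 CPM in the CD36+ sample, 128 CPM in the PDPN+ sample and 3728 CPM in the double-negative sample. The 8 basal epithelial markers summed to 65.9, 5702 and 244 CPM in the same order. Of the 8, 6 were under 10 CPM in the CD36+ sample, which is labelled as mammary epithelial cells. Trp63 stood at 0.0507 CPM and Krt14 at 0.186 CPM there, so 2 defining genes of basal epithelium were near 0. Acta2 stood at 37.0 CPM and Krt5 at 18.4 CPM in the same sample. All 7 immune markers were under 10 CPM in each library, and the 6 fibroblast markers summed to 116, 611 and 61.1 CPM. The 8 luminal epithelial markers summed to 1293, 659.9 and 1067 CPM, of which Cd14 alone held 929, 15.2 and 779.9 CPM. Krt8 and Krt18 were highest in the PDPN+ sample, at 122, 326 and 84.4 and at 131, 284 and 145 CPM. Krt19 was lowest there, at 33.9, 9.33 and 36.9 CPM. The 6 pericyte markers summed to 259, 70.6 and 189 CPM, of which Rgs5 alone held 241, 51.9 and 164 CPM. The 5 erythroid and platelet markers summed to 72.9, 8.92 and 23.2 CPM. Of the latter, the globin gene Hbb-bs stood at 51.6 CPM in the CD36+ sample and at 0 counts in the others. Pf4 went the other way, at 21.6 CPM in the double-negative sample, 2 counts in the CD36+ and 0 in the PDPN+ sample. The 5 lymphatic endothelial markers summed to 30.1, 79.3 and 39.7 CPM, and they did not move together. Mmrn1 stood at 0, 43.5 and 15.4 CPM and Reln at 0.0676, 25.3 and 0.139 CPM, both highest in the PDPN+ sample. Prox1, at 18.1, 6.15 and 21.1 CPM, and Flt4, at 11.9, 4.12 and 3.09 CPM, were higher in the CD36+ than the PDPN+ sample. Lyve1 had at most 0.189 CPM. The part that these differences in cell type markers have in the results below was not tested.

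The upstream sequences of Klf2 and Klf4 are shown because these neighbours in function share an upstream arm that is measured below. RefSeq promoter windows (GRCm38.p6) were matched for 8 of the 10 genes. Capitals mark GC boxes (GGGCGG on either strand) in both genes and, in Klf2, the match to the MEF2 consensus, CTAAATTTAG. The Klf2 stretch is chr8:72318812-72319032 (plus strand, 221 bases) and the Klf4 stretch is chr4:55532476-55532725 (minus strand, 250 bases), both ending upstream of the annotated start.
Klf2: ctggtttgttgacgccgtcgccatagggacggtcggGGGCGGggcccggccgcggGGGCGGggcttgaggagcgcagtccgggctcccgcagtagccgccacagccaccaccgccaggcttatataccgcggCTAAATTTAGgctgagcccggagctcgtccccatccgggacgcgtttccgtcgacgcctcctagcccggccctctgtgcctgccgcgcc
Klf4: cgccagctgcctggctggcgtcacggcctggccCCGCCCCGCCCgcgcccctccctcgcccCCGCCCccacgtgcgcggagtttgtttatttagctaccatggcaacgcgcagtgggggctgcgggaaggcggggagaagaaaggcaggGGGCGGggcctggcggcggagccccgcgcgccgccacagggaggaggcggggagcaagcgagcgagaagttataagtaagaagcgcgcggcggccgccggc
The MEF2 match of Klf2 began 118 bases before the RefSeq start, and Klf2 was the 1 gene of the 8 with such a match. A match occurred in 2.92% of all 32841 promoter windows, counting the 250 bases before the start on both strands. Klf2 held 2 GC boxes and Klf4 held 4, of which 2 overlap by a base. GC boxes were present in 7 of the 8 windows and in 32.7% of all windows. The 8 windows were 59.2% to 78.4% G and C, and the share among windows of like GC content was not counted. The CACCC box, searched as CCACCC on either strand, was present in 4 of the 8, namely Klf2, Klf3, Klf7 and Klf13, and in 28.1% of all windows. In Klf2 it lies past the printed stretch. All windows follow the RefSeq start. Against the gene start in the GENCODE annotation, the Klf7 window lies wholly inside the gene. For Klf3, 117 of the 250 bases lie before that start. The boxes and the MEF2 match are letter matches and say nothing of binding.

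The 10 genes together held 0.285% of the counts in the CD36+ sample, 0.25% in the PDPN+ sample and 0.223% in the double-negative sample. Their levels summed to 3262, 2157 and 2259 CPM. Klf6 and Klf7 made up 71.5% of the family's counts in the CD36+ sample and 75.1% in the double-negative sample, but 41.1% in the PDPN+ sample.

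**Figure D1:**
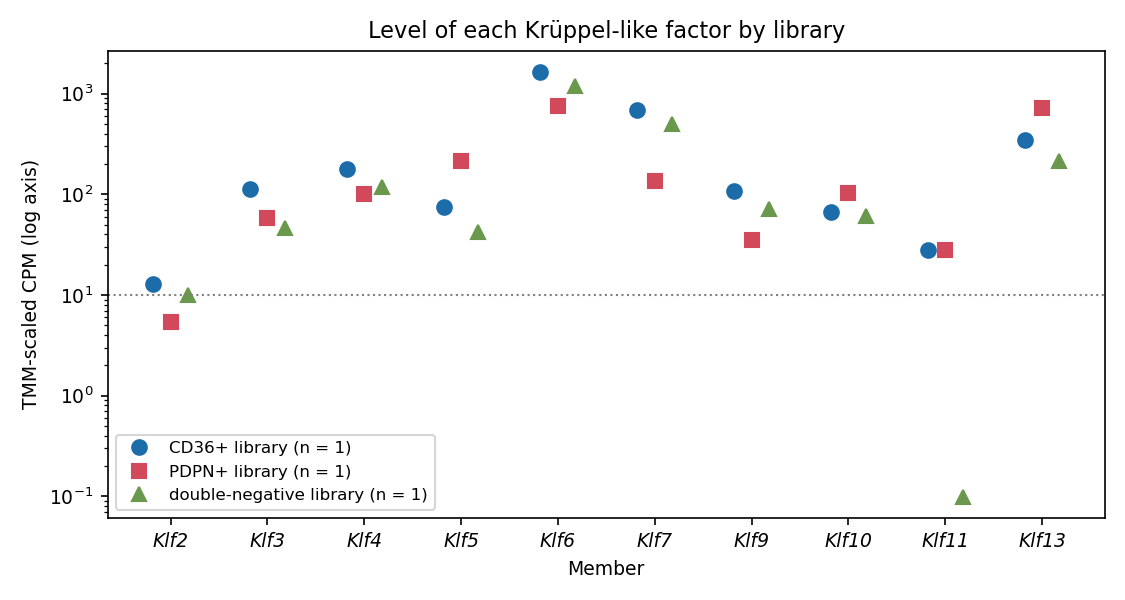
TMM-scaled CPM (log axis) of each of the 10 genes, with 1 point per library; the dotted line marks 10 CPM. The PDPN+ points lie above both others for Klf5, Klf10 and Klf13 and below both for Klf2, Klf4, Klf6, Klf7 and Klf9, and the double-negative point of Klf11 lies near 0.1 CPM.

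Between the CD36+ and PDPN+ samples, the CD36+ sample had at least 2-fold more Klf7, Klf9, Klf2 and Klf6, and the PDPN+ sample at least 2-fold more Klf5 and Klf13. Klf2 was tested only through the CD36+ sample, where it is high (12.8 against 5.42 CPM). All 10 genes reached 10 CPM in 1 of these libraries or both. Of the 9384 genes that did so, 53.4% were at least 2-fold apart (25.3% higher and 28% lower in the CD36+ sample), so 6 of 10 is near the background. The median log2 ratio of the 10 genes was 0.89, against -0.02 over all genes tested. It was 0.49 with total counts, 1.16 with upper quartile scaling and 0.23 by TPM. At a 4-fold limit only Klf7 remained of the 10, against 32.7% of all genes. The split of calls depended on the scaling. It was 4 higher and 2 lower with TMM, 2 and 3 with total counts, 6 and 1 with upper quartile scaling, and 2 and 2 by TPM. Among all genes, 47.4% of the 2-fold calls were higher in the CD36+ sample with TMM, 33.9% with total counts, 57.5% with upper quartile scaling and 33% by TPM. The median ratio of all genes moved by -0.40 with total counts, 0.27 with upper quartile scaling and -0.48 by TPM.

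Between the double-negative and PDPN+ samples, Klf7 and Klf9 were at least 2-fold higher in the double-negative sample, and Klf5, Klf11 and Klf13 were at least 2-fold lower. Here 55.6% of 9512 genes were at least 2-fold apart (25.4% higher and 30.2% lower in the double-negative sample), and 5 of the 10 were. Klf2 was tested only through the double-negative sample, where it stood just above the limit. The median log2 ratio of the 10 genes was -0.04, which turned positive with upper quartile scaling (0.24), against -0.11 over all genes. Klf5 and Klf11 were at least 4-fold apart, against 34.2% of all genes. The split of 2 higher and 3 lower became 1 and 3 with total counts and by TPM, and 3 and 3 with upper quartile scaling. Among all genes, 45.7% of calls were higher in the double-negative sample with TMM and 56.2% with upper quartile scaling. This comparison shares the PDPN+ sample with the one before.

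Between the CD36+ and double-negative samples, only Klf3 and Klf11 were at least 2-fold apart, both higher in the CD36+ sample. The background was 43.9% of 8966 genes in either direction, 22.9% higher and 21% lower in the CD36+ sample. At a 4-fold limit Klf11 alone remained, against 24.2% of all genes. The median log2 ratio was 0.58 for the 10 genes and 0.11 over all genes. With TMM each of the 10 was higher in the CD36+ sample, though only 1.1-fold for Klf10 and 1.28-fold for Klf2. The share of all genes higher there by any amount was not counted, so this has no background beside it. Klf10 turned with total counts and by TPM, and Klf7 turned by TPM. The CD36+ sample takes part in the first comparison too, so these ratios are not independent of each other.

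**Figure D2:**
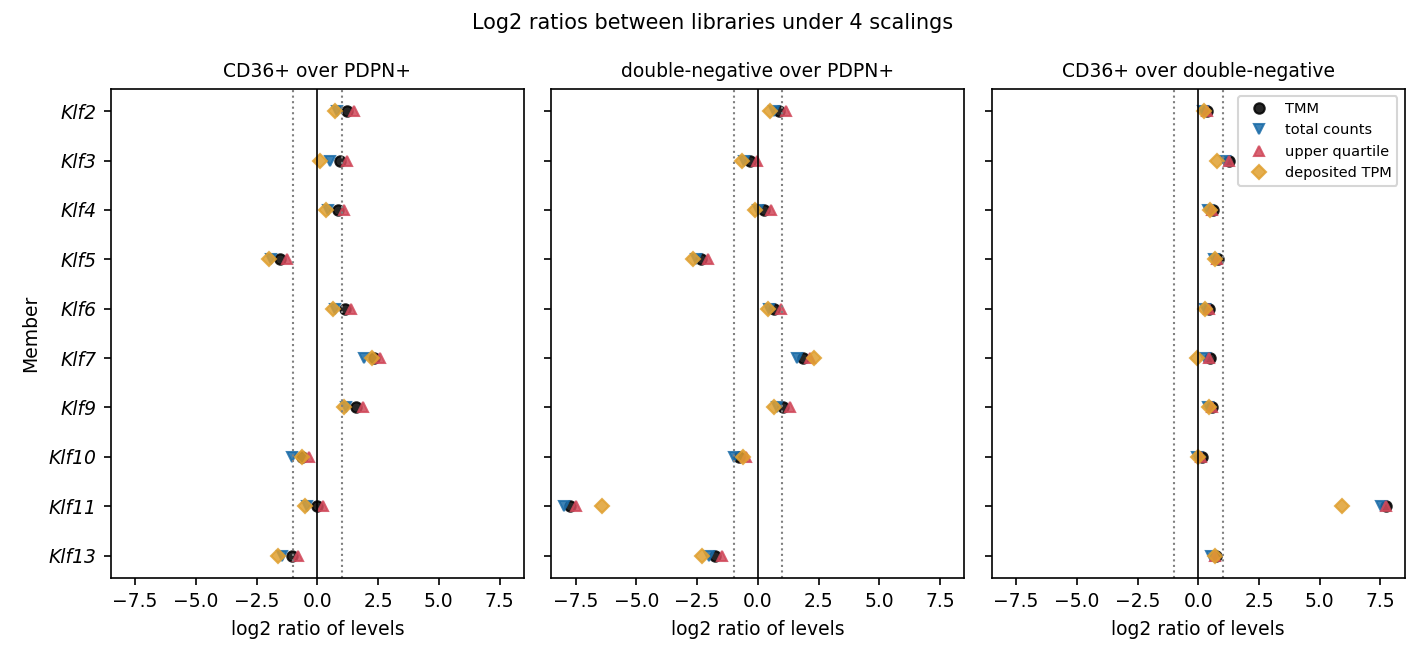
Log2 ratio of each gene in the 3 comparisons (above 0: higher in the library named before "over"), with 1 symbol per scaling; dotted lines mark 2-fold. Klf5 and Klf13 lie left of 0 and Klf7 and Klf9 right of 0 under every scaling in both comparisons with the PDPN+ sample, and Klf11 stands apart in both comparisons with the double-negative sample.

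Klf2 (chromosome 8, 72319033 to 72321656, plus strand of mm10) is, like Klf4, a flow-induced endothelial member. It stood at 12.8 CPM in the CD36+ sample, 5.42 in the PDPN+ sample and 10.04 in the double-negative sample, from 758, 401 and 507 counts. It was low in each library, and the PDPN+ sample was the lowest. The CD36+ over PDPN+ ratio was 2.36 (2.09 to 2.67), and 1.69 by TPM. The double-negative over PDPN+ ratio was 1.85 (1.62 to 2.12).

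Klf4 (chromosome 4, 55527143 to 55532466, minus strand), which acts both in endothelium and in epithelial barriers, stood at 179, 99.8 and 118 CPM in samples CD36+, PDPN+ and double-negative. It was more abundant than Klf2 in each library also per length, at 69.3, 54.2 and 50.1 TPM against 8.5, 5.04 and 7.28 TPM. Its range of 0.84 on the log2 scale was, with that of Klf10 at 0.76, among the narrowest of the family. The CD36+ level was 1.79-fold that of the PDPN+ sample (1.74 to 1.85). The ratio of the double-negative to the PDPN+ sample was 1.18 (1.14 to 1.23), and it turned by TPM (0.924).

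Klf5 (chromosome 14, 99298691 to 99315036, plus strand), an activator of epithelial proliferation, stood at 74.2 CPM in the CD36+ sample, 212 in the PDPN+ sample and 42.5 in the double-negative sample. The PDPN+ sample was the high one under every scaling. It exceeded the CD36+ sample 2.86-fold (2.76 to 2.96) and the double-negative sample 4.98-fold (4.76 to 5.22). By TPM the same ratios were 4.02 and 6.39.

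Klf6 (chromosome 13, 5861482 to 5870394, plus strand), an activator that responds early to injury and stress, was the most abundant member. It stood at 1644, 750 and 1198 CPM in samples CD36+, PDPN+ and double-negative, where it ranked 74, 146 and 90 among all genes by CPM. The CD36+ over PDPN+ ratio was 2.19 (2.17 to 2.22), but 1.58 by TPM, so the 2-fold limit was passed or missed with the scale. The ratio of the double-negative to the PDPN+ sample was 1.6 (1.58 to 1.62).

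Klf7 (chromosome 1, 64029447 to 64122282, minus strand), an activator known from neurons and from the control of fat cell formation, showed the widest gap of the CD36+ over the PDPN+ sample. It stood at 689, 137 and 498 CPM in samples CD36+, PDPN+ and double-negative. The CD36+ and double-negative samples were both high, 5.02-fold (4.91 to 5.13) and 3.63-fold (3.54 to 3.71) above the PDPN+ sample. By TPM these ratios were 4.74 and 4.93. The order of the 2 high libraries turned with the scale, at 134 TPM in the CD36+ and 140 TPM in the double-negative sample. The effective length that the deposited tables give for Klf7 differed, at 2150, 2492 and 1809 bases in samples CD36+, PDPN+ and double-negative. The annotation holds 3 transcripts of Klf7, from 553 to 7662 bases long. The antisense gene Gm26649 shares 3196 exonic bases with it and had at most 0.0338 CPM.

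Klf3 (chromosome 5, 64803388 to 64832901, plus strand), the CtBP-binding repressor, was the member that separated the CD36+ from the double-negative sample by more than 2-fold at an appreciable level in both. It stood at 112, 58.3 and 46.3 CPM in samples CD36+, PDPN+ and double-negative, with the CD36+ sample high. The CD36+ over double-negative ratio was 2.41 (2.3 to 2.53), and 1.71 by TPM. Its ratio to the PDPN+ sample was 1.92 (1.85 to 1.99), but 1.08 by TPM. The effective length of Klf3 was 543, 675 and 616 bases in samples CD36+, PDPN+ and double-negative, while its 9 annotated transcripts reach from 298 to 5221 bases. Of its exonic bases, 404 lie opposite Gm20033, which had at most 1.96 CPM, and the sources used here do not give whether counting used the strand.

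Klf9 (chromosome 19, 23141226 to 23168134, plus strand), a SIN3-binding repressor that glucocorticoids and thyroid hormone induce, stood at 107, 35.5 and 72.2 CPM in samples CD36+, PDPN+ and double-negative. The PDPN+ sample was the low one. The CD36+ sample exceeded it 3.01-fold (2.88 to 3.15) and the double-negative sample 2.03-fold (1.93 to 2.14), with 2.15 and 1.59 by TPM.

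Klf10 (chromosome 15, 38291463 to 38300706, minus strand), an early target of TGF-beta, stood at 66.4, 102 and 60.3 CPM in samples CD36+, PDPN+ and double-negative. The PDPN+ sample was the high one under every scaling, 1.54-fold above the CD36+ sample (1.48 to 1.6) and 1.7-fold above the double-negative sample (1.63 to 1.77). These gaps stayed under 2-fold, except against the CD36+ sample with total counts, where the log2 ratio was -1.03.

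Klf11 (chromosome 12, 24651274 to 24662789, plus strand), the close relative of Klf10 and likewise a TGF-beta target, had the widest range. It stood at 27.8 CPM in the CD36+ sample and 28.1 CPM in the PDPN+ sample, from 1646 and 2079 counts. The double-negative sample held 5 counts, or 0.099 CPM. The CD36+ and PDPN+ samples had a ratio of 0.989 (0.927 to 1.06), with a direction that turned under upper quartile scaling. The double-negative sample was 281-fold below the CD36+ sample (120 to 866) and 284-fold below the PDPN+ sample (121 to 875). Such a pattern was not particular to Klf11. Among 4402 genes with at least 20 CPM in both other libraries, 35 (0.795%) stood at or below 0.099 CPM in the double-negative sample. The same count was 35 of 4329 (0.809%) for the CD36+ sample and 74 of 4624 (1.6%) for the PDPN+ sample. For genes between 20 and 40 CPM in both other libraries it was 18 of 516 (3.49%) for the double-negative sample, 12 of 469 (2.56%) for the CD36+ sample and 11 of 541 (2.03%) for the PDPN+ sample. The limits of this count were chosen after Klf11 had been seen.

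Klf13 (chromosome 7, 63886351 to 63938915, minus strand), a SIN3-binding member known from lymphocytes and heart, stood at 350 CPM in the CD36+ sample, 728 in the PDPN+ sample and 213 in the double-negative sample. It was high in the PDPN+ sample, 2.08-fold above the CD36+ sample (2.05 to 2.12) and 3.42-fold above the double-negative sample (3.35 to 3.49). By TPM the ratios were 3.1 and 4.93, and with upper quartile scaling the log2 ratio of CD36+ to PDPN+ was -0.79.

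The order of the members per length differed between the libraries. Klf6 came first in each, at 1029 TPM in the CD36+ sample, 651 in the PDPN+ sample and 862 in the double-negative sample, or 70.1%, 54.4% and 70.4% of the family's TPM. Klf7 came second in the CD36+ and double-negative samples. In the PDPN+ sample Klf6 was followed by Klf13 at 204 TPM, Klf5 at 104 TPM and Klf10 at 96.8 TPM, and Klf7 stood lower, at 28.4 TPM. In the CD36+ sample Klf4, Klf13 and Klf10 lay close together at 69.3, 65.8 and 62.6 TPM, and Klf3 and Klf5 at 26.6 and 25.8 TPM, and without replicates these neighbours cannot be ordered. In the double-negative sample Klf10, Klf4 and Klf13 stood at 62.9, 50.1 and 41.4 TPM.

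**Figure D3:**
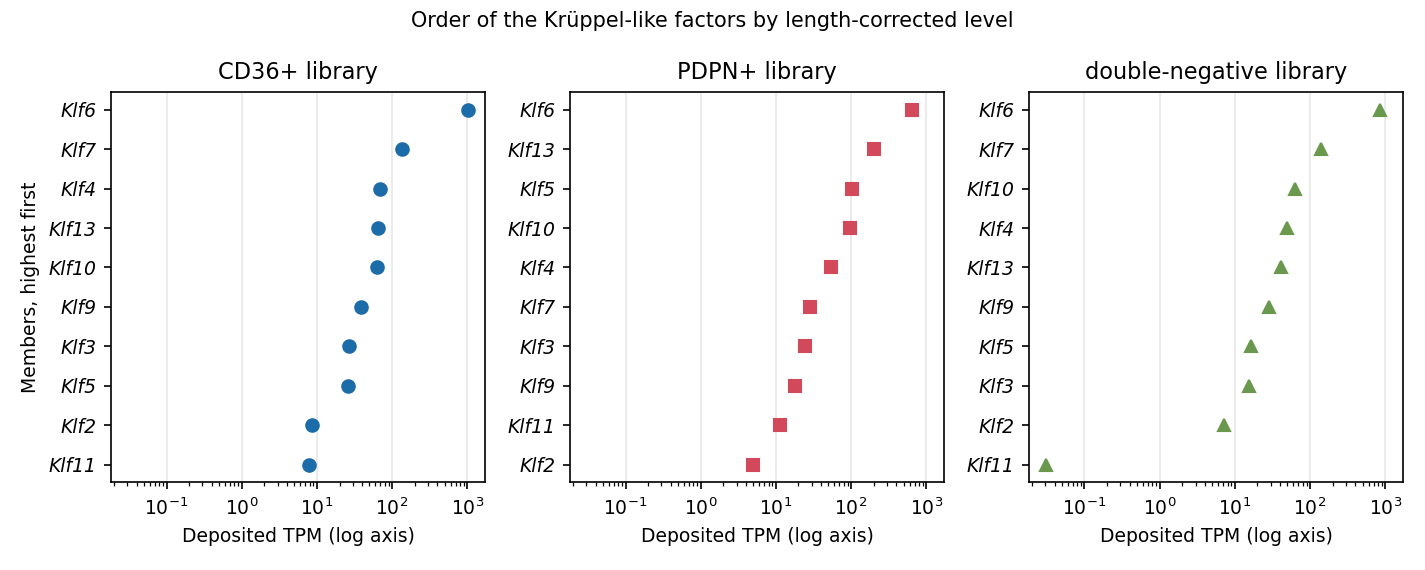
Deposited TPM (log axis) of the 10 genes in each library, sorted from highest to lowest. Klf6 heads each library, Klf7 is second in the CD36+ and double-negative samples, and Klf13, Klf5 and Klf10 follow Klf6 in the PDPN+ sample.

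Ratios between members inside a library do not depend on the scaling between libraries. There were 0.415 Klf5 counts for each Klf4 count in the CD36+ sample (0.4 to 0.43), 2.13 in the PDPN+ sample (2.07 to 2.18) and 0.36 in the double-negative sample (0.343 to 0.378). Klf5 thus exceeded Klf4 in the PDPN+ sample alone, also by TPM (1.91, against 0.372 and 0.324). The Klf13 to Klf6 ratio was 0.213, 0.971 and 0.178 in samples CD36+, PDPN+ and double-negative. The widest contrast of the 12 pairs computed was that of Klf5 to Klf7, at 0.108, 1.54 and 0.0854 counts. Klf13 to Klf7 stood at 0.508, 5.3 and 0.427, and Klf13 to Klf9, both SIN3-binding, at 3.27, 20.5 and 2.95. The counting intervals of Klf2 to Klf6 overlapped between the CD36+ and PDPN+ samples (0.00724 to 0.00837 and 0.00654 to 0.00798). Those of Klf7 to Klf6 overlapped between the CD36+ and double-negative samples (0.414 to 0.424 and 0.41 to 0.422).

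**Figure D4:**
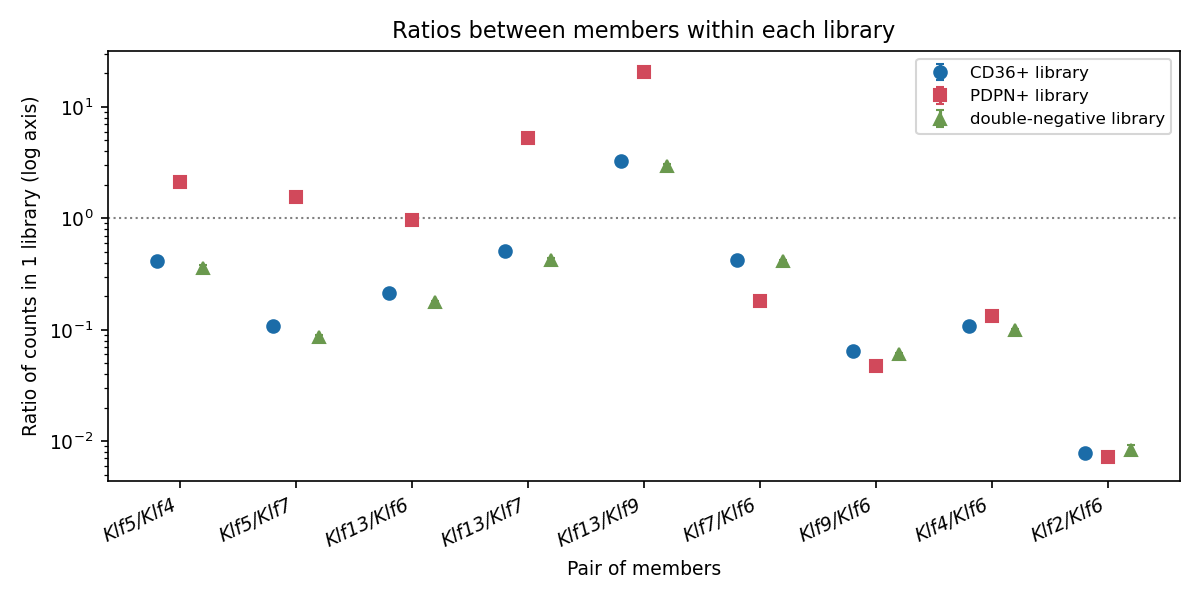
Ratio of the counts of 2 members within each library (log axis), for 9 of the 12 pairs; bars are 95% counting intervals, mostly smaller than the symbols. The PDPN+ points stand above the other two for each ratio with Klf5 or Klf13 on top, and the Klf2 to Klf6 ratios lie close together.

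The profiles most like a member over the 3 libraries were sought for the 3 genes with the widest range, among 7358 coding genes with at least 20 CPM in 1 library. The measure was the distance between centred log2 profiles. Nearest to Klf11 were Lum at 0.041, Pcsk6 at 0.147 and Otud5 at 0.154. Lum, a proteoglycan gene and one of the fibroblast markers, stood at 49.0, 51.1 and 0.198 CPM in samples CD36+, PDPN+ and double-negative. Nearest to Klf7 were Rbm18, Tmbim4 and Ccdc91, and nearest to Klf5 were Uba6, Trip12 and Exosc7. A distance of at most 0.5 was met by 22 genes for Klf11, 232 for Klf7 and 139 for Klf5, which is 0.299%, 3.15% and 1.89% of the 7358. Klf11 and Lum rest on 5 and 10 counts in the double-negative sample, so the distance between them is smaller than the counting error.

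Of 16 further Krüppel-like and SP family genes, 4 reached 10 CPM in any pair, namely Sp1, Sp3, Sp4 and Klf16. Sp1, a broadly used activator of GC boxes, stood at 106, 70.8 and 37.7 CPM in samples CD36+, PDPN+ and double-negative, and the related Sp3 at 42.9, 69.7 and 51.3 CPM. Klf16, a SIN3-binding member, stood at 14.1, 16.4 and 6.85 CPM. Sp4 had 2 counts in the CD36+ sample, against 26.1 CPM in the PDPN+ and 10.2 CPM in the double-negative sample. Of the CtBP-binding relatives of Klf3, Klf8 had at most 2.24 CPM and Klf12 at most 3.34 CPM. By TPM Klf8 stood at 0.159, 21.4 and 30.6 in samples CD36+, PDPN+ and double-negative, beside 26.6, 24.6 and 15.5 for Klf3. The effective length of Klf8 in the deposited tables was 2281, 29 and 30 bases in the same order, so its TPM differ through the length as well as the counts. Klf12 stood at 5.71, 1.96 and 5.09 TPM. Klf1, the erythroid member, had 0 counts in each library, where 3 counts would correspond to 0.0507, 0.0406 and 0.0594 CPM.

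Of 12 genes in the arm that leads to Klf2 and Klf4, 4 were at least 2-fold higher and 3 lower in the CD36+ than in the PDPN+ sample. This is near the background of 25.3% higher and 28% lower over all genes. The median log2 ratio of 0.26 turned with total counts (-0.14) and by TPM (-0.57). Between the double-negative and PDPN+ samples 11 were tested, 3 higher and 4 lower in the double-negative sample (median -0.51). The shares of all genes were 25.4% higher and 30.2% lower. The MEF2 genes Mef2a, Mef2c and Mef2d were higher in the CD36+ than the PDPN+ sample. Mef2a stood at 369, 34.6 and 143 CPM in samples CD36+, PDPN+ and double-negative, 10.7-fold higher in the CD36+ than the PDPN+ sample (10.3 to 11.1). The ratio of the double-negative to the PDPN+ sample was 4.14 (3.95 to 4.33). Mef2d stood at 38.4, 9.24 and 4.95 CPM, so it was lower in the double-negative than the PDPN+ sample (ratio 0.536, 0.462 to 0.621). Mef2c stood at 99.6, 31.9 and 90.1 CPM, and the kinase gene Map3k3 at 63.5, 10.6 and 49.99 CPM. Mapk7, which encodes ERK5, stood at 45.9, 33.4 and 33.3 CPM, under 2-fold apart in each pair. Map2k5, the kinase above it, stood at 11.1 and 12.7 CPM in the CD36+ and PDPN+ samples and had 0 counts in the double-negative sample. The genes of the cerebral cavernous malformation complex, which holds this arm down, were lower in the CD36+ than the PDPN+ sample or under 2-fold apart. Krit1 stood at 139 against 306 CPM and Ccm2 at 21.4 against 119 CPM, both lower in the CD36+ sample, while Pdcd10 at 277 against 257 CPM and Heg1 at 338 against 309 CPM turned with total counts and by TPM.

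Endothelial genes that KLF2 and KLF4 are known to induce and genes they are known to repress were both mostly higher in the CD36+ and double-negative samples than in the PDPN+ sample. Of 5 induced genes 4 were tested, and 3 were at least 4-fold higher in each of these comparisons. Of all genes, 15.1% were so in the CD36+ sample and 14.9% in the double-negative sample. Thbd, thrombomodulin, stood at 1276, 47.1 and 748 CPM in samples CD36+, PDPN+ and double-negative. S1pr1, a sphingosine phosphate receptor, stood at 562, 2.34 and 506 CPM, and Nos3, endothelial nitric oxide synthase, at 16.5, 0.0406 and 29.7 CPM. S1pr1 and Nos3 were tested only through the CD36+ and double-negative samples, where they are high. Slco2a1, a prostaglandin transporter, was higher in the PDPN+ sample, at 304 CPM against 231 and 161 CPM. Nppc, the induced gene not tested, was lowest in the CD36+ sample, at 0, 2.29 and 3.35 CPM in samples CD36+, PDPN+ and double-negative. Of 7 repressed genes 5 were at least 2-fold higher and 1 lower against the PDPN+ sample, both in the CD36+ and in the double-negative sample, with medians of 1.57 and 2.03. Sele, E-selectin, stood at 1662, 48.6 and 1133 CPM, Kdr, a VEGF receptor, at 298, 4.64 and 223 CPM, and the adhesion gene Vcam1 at 943, 326 and 927 CPM. F3, the tissue factor gene, stood at 43.1, 43.2 and 17.1 CPM. Of the 7 repressed genes, 2 were under 10 CPM in the PDPN+ sample and so were tested only through the other samples. The endothelial markers moved with both lists, with all 10 at least 4-fold higher in each of these comparisons. In the PDPN+ sample 7 of these 10 were under 10 CPM. The part of the endothelial markers in the values of both lists was not tested.

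Of 10 genes around KLF5, 9 were tested between the CD36+ and PDPN+ samples. 1 was at least 2-fold higher and 3 lower in the CD36+ sample (median -0.31), beside 25.3% and 28% of all genes. The ubiquitin ligases WWP1 and ITCH, which mark KLF5 for degradation, were low in the CD36+ sample alone. Wwp1 stood at 4.92, 46.3 and 47.4 CPM and Itch at 18.4, 146 and 145 CPM in samples CD36+, PDPN+ and double-negative. Fbxw7, another ligase of KLF5, stood at 101, 125 and 124 CPM, and the coactivator genes Yap1 and Wwtr1 at 209.7, 162 and 132 and at 281, 345 and 328 CPM. Ccnd1, the cyclin D1 gene, was highest in the double-negative sample, at 228 CPM against 59.1 and 33.8 CPM in the CD36+ and PDPN+ samples. Ptges, a prostaglandin E synthase gene and a target on the list, was high in the PDPN+ sample, at 82.1 CPM against 3.68 CPM in the CD36+ and 0.574 CPM in the double-negative sample. It exceeded them there 22.3-fold (19.5 to 25.6) and 143-fold (99.4 to 214). Fgfbp1, which encodes a carrier of fibroblast growth factors, had 4.83 CPM in the PDPN+ sample, 0 counts in the CD36+ and 2 counts in the double-negative sample. Pdgfa, a growth factor target, was 4.04-fold higher in the CD36+ than the PDPN+ sample (3.8 to 4.29).

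Of 10 cofactor genes 9 were tested in each pair. Between the double-negative and PDPN+ samples 4 were at least 2-fold lower and 1 higher in the double-negative sample (median -0.96), and 5 of 9 is near the 55.6% of all genes. Between the CD36+ and double-negative samples 4 were higher and 0 lower in the CD36+ sample (median 0.66), beside 43.9% of all genes in either direction. In the CD36+ against the PDPN+ sample 1 was higher and 0 lower, beside 53.4% of all genes in either direction. The median of 0.40 turned with total counts and by TPM. Sin3a, the SIN3 scaffold, stood at 34.0, 46.4 and 12.7 CPM in samples CD36+, PDPN+ and double-negative, and its relative Sin3b at 41.8, 36.4 and 46.8 CPM. The CD36+ over double-negative ratio of Sin3a was 2.68 by CPM and turned by TPM, where the gene stood at 8.02, 16.0 and 8.27. Ctbp1, a partner of KLF3, stood at 35.2, 24.9 and 9.21 CPM, and Ctbp2 at 55.9, 39.6 and 35.5 CPM. The acetyltransferase genes Crebbp and Ep300 stood at 825, 724 and 372 CPM and at 44.7, 24.1 and 3.72 CPM. The deacetylase gene Hdac1 stood at 49.2, 37.3 and 35.7 CPM.

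The hormone and growth factor arms of the SIN3-binding members were read beside them. Of 9 glucocorticoid genes 8 were tested, 4 at least 2-fold higher and 1 lower in the CD36+ than in the PDPN+ sample (median 0.72, but 0.07 by TPM). The shares of all genes were 25.3% higher and 28% lower. Between the double-negative and PDPN+ samples 1 was higher and 2 lower in the double-negative sample, beside 25.4% and 30.2% of all genes. The median was 0.05 and turned with total counts (-0.18) and by TPM (-0.30). The receptor gene Nr3c1 stood at 186, 89.4 and 163 CPM in samples CD36+, PDPN+ and double-negative, while by TPM it stood at 33.9, 30.2 and 35.2. Fkbp5, a receptor chaperone, stood at 66.8, 14.2 and 72.6 CPM. Tsc22d3, a common target, went the other way in the double-negative sample, at 1.66 CPM against 33.3 and 14.8 CPM. The metallothionein genes Mt1 and Mt2 stood at 330.3, 266 and 219 CPM and at 216, 87.5 and 147 CPM, and the kinase gene Sgk1 at 203, 156 and 183 CPM. All 13 TGF-beta genes were tested between the CD36+ and PDPN+ samples. In the CD36+ sample 5 were lower by 4-fold or more and 1 was higher by as much (median -0.71). By the same limit, 17.6% of all genes were lower there and 15.1% were higher. Smad3 stood at 32.0, 153 and 23.1 CPM and Smad4 at 15.1, 90.2 and 14.1 CPM, with the PDPN+ sample high. Tgfb1, a ligand, went the other way at 13.6 against 1.26 CPM, though by TPM the values were 8.21 against 6.05. Skil, a SMAD repressor and the most abundant of the list, stood at 378, 435 and 417 CPM. The receptor gene Tgfbr1 stood at 125, 86.9 and 56.7 CPM and the ubiquitin ligase gene Smurf2 at 69.2, 70.1 and 23.1 CPM. Smad7, an inhibitor of the pathway, was low in the CD36+ sample, at 0.828 CPM against 21.3 and 18.5 CPM in the others.

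Since Klf2, Klf4, Klf6 and Klf10 also respond within minutes to cell stress, the immediate early genes were set beside them. All 18 were tested between the CD36+ and PDPN+ samples. 12 were at least 2-fold higher and 1 lower in the CD36+ sample (median 1.57), beside 25.3% and 28% of all genes. Between the double-negative and PDPN+ samples 17 were tested, 7 higher and 2 lower (median 0.53), beside 25.4% and 30.2% of all genes. Between the CD36+ and double-negative samples 10 of 17 were higher and 0 lower (median 1.02), beside 22.9% and 21% of all genes. Their levels summed to 4377, 1841 and 2613 CPM in samples CD36+, PDPN+ and double-negative. Klf2, Klf4 and Klf6 had the same order of samples by CPM (by TPM the double-negative and PDPN+ samples change places for Klf4). So did Klf7 (689, 137 and 498 CPM), Klf9 (107, 35.5 and 72.2 CPM) and the endothelial marker sum (5392, 128 and 3728 CPM). By TPM Klf9 kept this order (38.3, 17.8 and 28.3), while the CD36+ and double-negative samples change places for Klf7 (134 and 139.9). The order was thus also seen outside the stress-responsive members, and the reason for it was not tested. Klf10 had another order, with the PDPN+ sample highest at 102 CPM against 66.4 and 60.3 CPM. Dusp1, a phosphatase of MAP kinases, stood at 1008, 611 and 586 CPM, Ier3 at 506, 97.9 and 515 CPM, Myc at 521, 264 and 259 CPM and Ier2 at 315, 258 and 101 CPM. Egr2 went the other way, with 16.0 CPM in the PDPN+ sample and 2 counts in the CD36+ sample. The part of this list in the levels of the Krüppel-like factors was not tested.

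**Figure D5:**
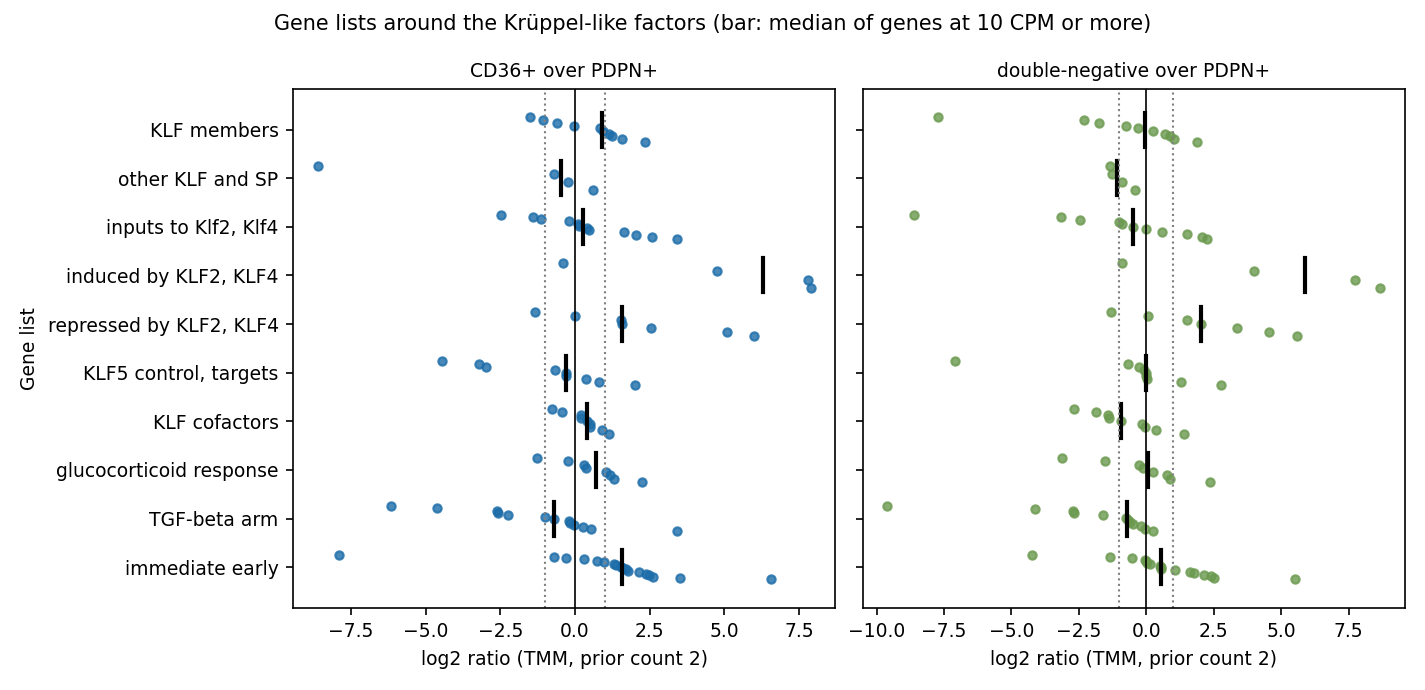
Log2 ratio of every gene with at least 10 CPM in either library, by gene list, for the CD36+ over PDPN+ and the double-negative over PDPN+ comparison; bars are medians and dotted lines 2-fold. The lists induced and repressed by KLF2 and KLF4 both have medians right of 1, and the TGF-beta list has medians of -0.71 in both.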

How the data were processed

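RNA from 3 sorted mouse mammary populations was sequenced, with 1 library each, and groups were taken from the labels. The authors deposited fractional estimated counts and TPM for each gene, with effective lengths. The submitters' processing notes name Salmon 0.9.1 and mm10. Annotation release, strand setting and filters: not given in the sources used here. Per the labels' protocols, a low-input kit or a stranded ribosomal-depletion kit was used, on the NextSeq or NovaSeq. Which served which library is not given, so kit and population cannot be told apart.

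Counts were rounded to whole numbers and scaled with TMM (edgeR 4.0.16, R 4.3.3). Identifiers without version were matched to GENCODE M21 (mm10 sequence), which named 52566 of 52661. Log2 ratios used a prior count of 2 (for TPM, a pseudocount of 0.1). A gene was tested with at least 10 CPM in either library and called at least 2-fold apart. Intervals are exact (Clopper-Pearson) at 95%. Reads without molecular identifiers may be PCR copies, so intervals and the floor of 3 counts cover counting error only. The ratio code was tested on simulated data. Python 3.11.15, pandas 2.3.3 and scipy 1.17.1 were used. Promoter windows came from RefSeq.

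The members and lists were chosen with earlier results of these data known. All 10 members are named, with up to 4 genes of each list by mean level, list genes at least 4-fold against their list, and the 3 profiles nearest to each of the 3 widest-ranging members. Of the cell type markers few are named. Other list genes, such as Map2k5, Mapk7, Mef2c, Mef2d, Nppc, Wwp1, Itch, Ptges, Fgfbp1, Klf8, Klf12, Sin3a, Ep300 and Smad4, were named after their values were seen. Alternatives were total counts, upper quartile and relative log expression scaling, the deposited TPM, no minimum level, a prior count of 0.5 and a 4-fold limit.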

Additional observations from a re-analysis of the deposited data

How the results depend on the processing

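With 1 library a population, no replicate could be left out. No paired analysis was possible because each population had 1 library. The number of members at least 2-fold apart was 6 between the CD36+ and PDPN+ libraries, 5 between the double-negative and PDPN+ libraries and 2 between the CD36+ and double-negative libraries. A 4-fold limit left 1, 2 and 1. By the deposited TPM the last count was 0, since Klf3 was 1.71-fold apart and Klf11 stood at 7.85 TPM, under the minimum of 10. Under the other scalings, without a minimum level and with a prior count of 0.5, each count stayed within 1.5 times. The genes called changed more. Between the CD36+ and PDPN+ libraries total counts dropped Klf2 and Klf6 and added Klf10. Upper quartile scaling dropped Klf13 and added Klf3 and Klf4, and TPM dropped Klf2 and Klf6. Only Klf5, Klf7 and Klf9 were called there under every scaling. Of the 30 log2 ratios of members, 1 turned with total counts, 1 with upper quartile scaling, 0 with relative log expression, 3 by TPM and 0 with a prior count of 0.5, and none of those that turned was a ratio called 2-fold apart. Relative log expression moved the median ratio of all genes by at most 0.01, total counts by -0.23 and -0.17 in the comparisons of the double-negative with the PDPN+ and of the CD36+ with the double-negative library, upper quartile scaling by 0.28 and -0.01, and TPM by -0.36 and -0.13.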
